A study of Mus musculus with 12 samples.

Results

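The neurotrophin genes described here are 7 of the 23183 gene symbols measured, taken by name: the ligands Bdnf and Ntf3, the secreted neurotrophin-induced protein Vgf, the receptor kinases Ntrk2 and Ntrk3, and the receptors Ngfr and Sort1. All 7 symbols were found in every library. They were measured by RNA sequencing of 12 bulk libraries from male C57BL/6 mice. The irradiated mice (13Gy) had received X-rays to the abdomen to produce lasting gut injury, and their library names carry a dose of 13 Gy. The control mice (con) were not irradiated. From each of 3 irradiated and 3 control mice, 1 hippocampus library (Hippo) and 1 prefrontal cortex library (PFC) were made, which gives 4 groups of 3 libraries: Hippo 13Gy, Hippo con, PFC 13Gy and PFC con. Hippo and PFC libraries with the same number and treatment are from 1 mouse, whereas the same number in 13Gy and con denotes different mice. Tissue was taken in a chronic phase, and age and exact time were not given in the sources used here.

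Neurotrophins are small secreted growth factors that neurons make as longer precursors, the proneurotrophins. BDNF acts through the tyrosine kinase TrkB (Ntrk2) and neurotrophin-3 (Ntf3) mainly through TrkC (Ntrk3), which signal through the MAP kinase, PI3 kinase and phospholipase C gamma routes. All neurotrophins bind the p75 receptor (Ngfr), and proneurotrophins bind p75 together with sortilin (Sort1), which also sorts BDNF inside the cell. In the hippocampus BDNF is best known for its part in synaptic plasticity, and neurotrophin-3 is made there chiefly by granule cells of the dentate gyrus.

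In mm10 coordinates with GENCODE M21 annotation, the 7 genes lie on 7 chromosomes and are all protein-coding. Bdnf spans chr2:109674700-109727007 on the plus strand, Ntf3 chr6:126101412-126166910 on the minus strand and Vgf chr5:137026392-137033351 on the plus strand. Ntrk2 spans chr13:58806569-59133970 on the plus strand, Ntrk3 chr7:78175959-78738012 on the minus strand, Ngfr chr11:95568818-95587735 on the minus strand and Sort1 chr3:108284082-108361511 on the plus strand. Annotated genes overlap Bdnf (Gm45346), Ntrk2 (Gm47423, 4930415C11Rik and Gm34245), Ntrk3 (4921513I08Rik and Gm9885) and Sort1 (Gm12523) on the opposite strand. Use of the strand in counting was not given in the sources used here, so fragments of these pairs may not be separated. On the same strand, C630044B11Rik overlaps Ntrk2, Gm44607 and Gm39038 overlap Ntrk3, and Gm43099 overlaps Sort1. Strand cannot separate fragments of these same-strand pairs. The values are per gene and do not separate the full-length from the truncated receptor forms of Ntrk2 and Ntrk3.

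Bdnf and Ntf3 were the members whose levels differed most between the regions, and a start-site window of each is shown for that reason. The windows come from RefSeq (GRCm38.p6) and hold 250 bases before and 50 after a transcript start. They covered 4 members, with 7 windows for Bdnf, 2 for Ntf3, 1 for Ntrk2 and 1 for Ngfr. Letters of the cAMP response element, a site bound by CREB, were searched on both strands as TGACGTCA and as its part CGTCA, and the E-box letters CACGTG, which USF proteins can bind, likewise. TGACGTCA was found in no window of a member and in 588 of all 32851 windows (1.79%). CGTCA was found in 1 Bdnf window, at chr2:109692186-109692485 on the plus strand, and in 6837 of all windows (20.8%). CACGTG was found in 1 Ntf3 window, at chr6:126166695-126166994 on the minus strand, and in 2349 of all windows (7.15%). A match of letters describes the window and is not a measured binding site. The windows follow, 5′ to 3′ along each gene's strand, with the motif in capitals.
Bdnf window with CGTCA: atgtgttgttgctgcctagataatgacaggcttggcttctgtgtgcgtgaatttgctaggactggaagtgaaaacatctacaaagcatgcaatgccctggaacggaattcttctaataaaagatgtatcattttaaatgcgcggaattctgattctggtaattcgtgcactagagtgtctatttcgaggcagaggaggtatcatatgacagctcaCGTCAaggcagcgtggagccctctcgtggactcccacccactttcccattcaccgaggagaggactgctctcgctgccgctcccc
Ntf3 window with CACGTG: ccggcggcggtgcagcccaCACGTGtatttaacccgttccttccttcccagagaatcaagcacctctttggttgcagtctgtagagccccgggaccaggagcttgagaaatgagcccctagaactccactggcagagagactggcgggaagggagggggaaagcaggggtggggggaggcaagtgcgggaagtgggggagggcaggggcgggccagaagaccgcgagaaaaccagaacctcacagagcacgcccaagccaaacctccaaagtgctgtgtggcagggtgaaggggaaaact

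Levels are given as FPKM, that is, fragments per kilobase of transcript relative to each library's mapped fragments, so that genes of different length can be set beside each other. Depth was similar across libraries, at an estimated 15.6 to 18.9 M fragments, and 12640 to 12967 genes reached 1 FPKM. Summed markers of dentate granule cells reached 91.3 to 111 FPKM in Hippo 13Gy, 91.3 to 106 in Hippo con, 51.7 to 53.9 in PFC 13Gy and 53.3 to 59.6 in PFC con libraries, and summed markers of cortical projection neurons were highest in PFC libraries, so both region labels were borne out. Most of the granule cell sum in PFC was Calb1, which averaged 49.2 FPKM in PFC 13Gy and 52.2 in PFC con. Calb1 was lower in the hippocampus, at means of 43.9 FPKM in Hippo 13Gy and 41.4 in Hippo con. Among the cortical projection neuron markers, mean Fezf2 went the other way. It was 16.5 FPKM in Hippo 13Gy and 15.7 in PFC 13Gy, and 14.5 in Hippo con and 11.2 in PFC con. The PFC libraries also held markers of striatal projection neurons (750 to 969 summed FPKM in PFC and 66.3 to 115 in Hippo libraries). Markers of the choroid plexus summed to 64.1 FPKM in the library of irradiated mouse 2 and to 3115 to 5833 FPKM in the other Hippo libraries. Of the 6 to 8 markers in each of these lists, none was at 0 in a whole group. In bulk tissue, fewer cells of a type and less RNA per cell cannot be told apart.

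Sort1, Vgf and Ntrk2 were the most abundant members, at means over the 12 libraries of 97.9, 95.8 and 93.4 FPKM. These levels lie above 96.8%, 96.7% and 96.6% of all symbols. Ntrk3 averaged 22.9 FPKM. The classical ligands were far lower, with Bdnf at 7.73 FPKM and Ntf3 at 2.82 FPKM, and Ngfr was the lowest member at 1.47 FPKM. The order of Sort1, Vgf and Ntrk2 among themselves is not separated by the spread between libraries.

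**Figure D1:**
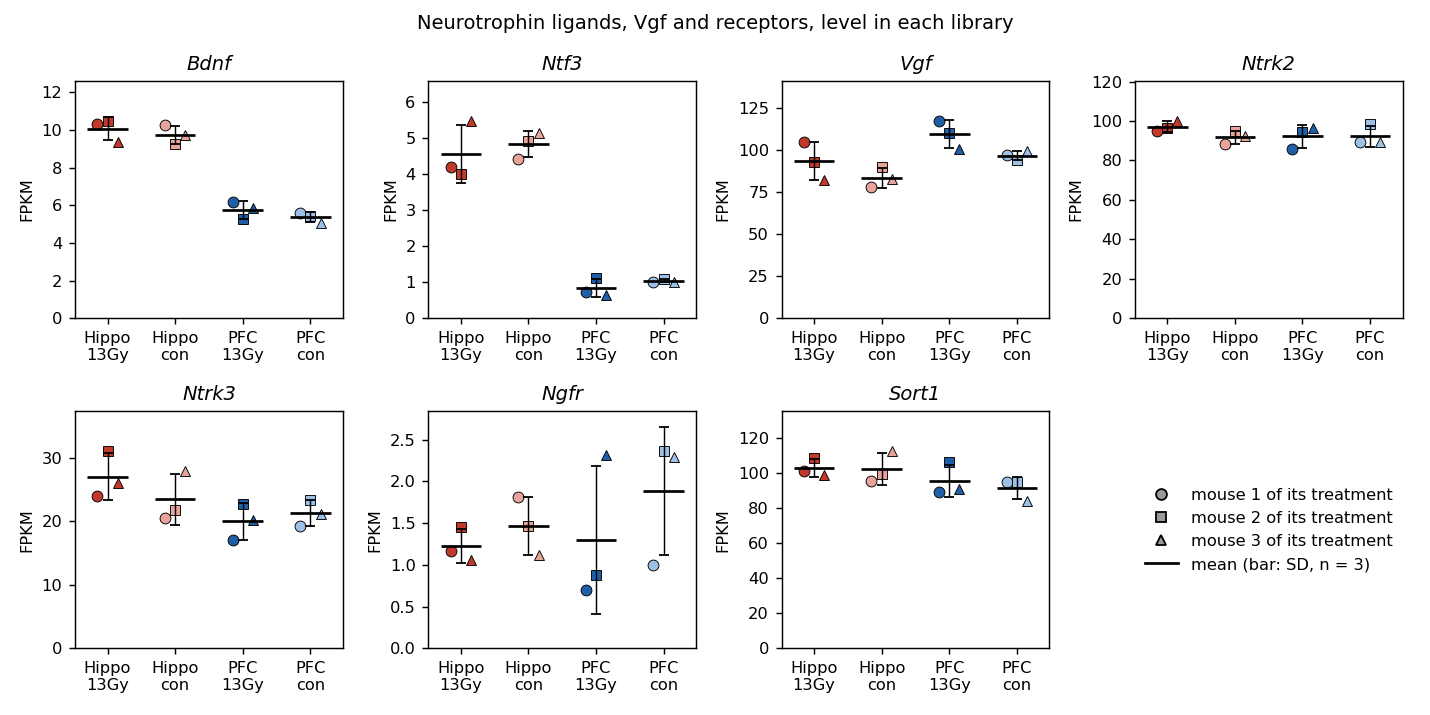
Level of each of the 7 genes in FPKM (vertical axes, linear, from 0), with 1 point per library, shaped by mouse, and a line at the mean with SD bars for each group of 3, Hippo 13Gy, Hippo con, PFC 13Gy and PFC con from left to right. Bdnf and Ntf3 are higher in every Hippo library than in any PFC library, whereas the irradiated and control points of a region overlap in every panel but that of Vgf in PFC.

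Between the regions, the classical ligands had the largest differences of the 7 members. Bdnf and Ntf3 were higher in the hippocampus than in the prefrontal cortex in irradiated mice and in control mice. Vgf was lower in the hippocampus in control mice, and Ntrk3 was higher there in irradiated mice. In limma's test over all genes with a Benjamini-Hochberg adjusted p threshold of 0.05, 3 of 7 members were called in irradiated mice, all higher in the hippocampus, and 29.2% of all genes tested were called, with 13.9% of all genes in that direction. In control mice 3 of 7 members were called, 2 higher and 1 lower, and 30.3% of all genes tested were called, with 15.7% higher and 14.6% lower. With so many genes called between these regions, 3 of 7 is not a result about the members as a set. Striatal markers differed between the same libraries by the sums given above, and their part in the region differences was not tested.

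Bdnf encodes brain-derived neurotrophic factor, made mainly by excitatory neurons. Its level was 10.3, 10.5 and 9.36 FPKM in Hippo 13Gy and 10.2, 9.25 and 9.71 FPKM in Hippo con libraries. In the prefrontal cortex it was 6.19, 5.24 and 5.83 FPKM in 13Gy and 5.60, 5.44 and 5.08 FPKM in con libraries. The lowest Hippo library thus stood above the highest PFC library, and the treatments overlapped within each region. Of all genes tested, 44.8% in irradiated and 45.7% in control mice likewise had regions that did not overlap. Irradiated mice had a mean of 10.1 ± 0.611 FPKM in the hippocampus and 5.76 ± 0.478 FPKM in the prefrontal cortex (SD, n = 3 each), a ratio of 1.75 and a log2 difference of 0.71 ± 0.08 (SE, on the log2(FPKM + 1) scale, limma, adjusted p = 0.00044). Control mice had 9.73 ± 0.494 FPKM in the hippocampus and 5.37 ± 0.265 FPKM in the prefrontal cortex (SD, n = 3 each), a ratio of 1.81 and a log2 difference of 0.75 ± 0.08 (SE, limma, adjusted p = 9.93e-05). Within single mice, the level in hippocampus was 1.60 to 2.00 times that in prefrontal cortex, with a median of 1.77, and was higher in 6 of 6 mice.

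Ntf3 encodes neurotrophin-3. The level of Ntf3 was 4.21, 4.0 and 5.49 FPKM in Hippo 13Gy and 4.43, 4.94 and 5.14 FPKM in Hippo con libraries. In PFC 13Gy libraries it was 0.717, 1.12 and 0.652 FPKM, and in PFC con libraries 1.01, 1.09 and 1.02 FPKM. Every Hippo library was above every PFC library by a wide margin. The regions also did not overlap for 44.8% of all genes tested in irradiated and 45.7% in control mice. An Ntf3 value in the prefrontal cortex rests on an estimated 17 to 30 fragments, against 109 to 152 in the hippocampus.
Mean Ntf3 was 4.57 ± 0.810 FPKM in the hippocampus and 0.829 ± 0.253 FPKM in the prefrontal cortex of irradiated mice (SD, n = 3 each), a ratio of 5.51. The log2 difference was 1.60 ± 0.14 (SE, limma, adjusted p = 0.00013). Ntf3 passed the filter on low values in irradiated mice through the hippocampus alone. In control mice the means were 4.83 ± 0.366 FPKM in the hippocampus and 1.04 ± 0.0453 FPKM in the prefrontal cortex (SD, n = 3 each), a ratio of 4.64 and a log2 difference of 1.51 ± 0.09 (SE, limma, adjusted p = 4.04e-06). Within single mice the ratio of hippocampus to prefrontal cortex ran from 3.57 to 8.43, with a median of 4.78, and was above 1 in 6 of 6 mice. Summed dentate granule cell markers, given above, moved in the same direction as Ntf3 between the regions. Among these markers Calb1 went the other way. The part of granule cells in the Ntf3 difference was not tested.

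Vgf encodes a granin-like secreted protein that neurotrophins induce and that is cut into active peptides. Its level was 104.7, 93.2 and 82.0 FPKM in Hippo 13Gy and 78.1, 89.8 and 82.8 FPKM in Hippo con libraries. In the prefrontal cortex it was 118, 110.4 and 101 FPKM in 13Gy and 97.1, 94.2 and 99.2 FPKM in con libraries. In both regions irradiated mouse 1 had the highest value and irradiated mouse 3 the lowest of the irradiated mice. Vgf ran against Bdnf and Ntf3 between the regions, being lower in the hippocampus in 6 of 6 mice, at 0.804 to 0.953 times its level in prefrontal cortex.
In irradiated mice the log2 difference of Vgf, hippocampus minus prefrontal cortex, was -0.23 ± 0.10 (SE, limma, adjusted p = 0.116), which did not pass the threshold, and with the mouse as a block the adjusted p was 0.00868 and 35.9% of all genes were called. In control mice it was -0.21 ± 0.07 (SE, limma, adjusted p = 0.0386), and the mean was 83.6 ± 5.87 FPKM in the hippocampus and 96.8 ± 2.52 FPKM in the prefrontal cortex (SD, n = 3 each). The call in control mice was kept without Hippo con 2 (adjusted p = 0.0339) and lost without any of the other 5 libraries, with limma's adjusted p from 0.059 without PFC con 1 to 0.132 without Hippo con 1.

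Ntrk2 encodes TrkB, which neurons express in its full-length form and astrocytes mainly in a truncated form. The level was 94.7, 96.3 and 100.2 FPKM in Hippo 13Gy and 88.3, 94.8 and 92.5 FPKM in Hippo con libraries. In PFC it was 85.8, 94.2 and 96.7 FPKM in 13Gy and 89.2, 98.5 and 89.2 FPKM in con libraries, so that all 4 groups overlapped. The log2 difference between hippocampus and prefrontal cortex was 0.07 (95% interval -0.07 to 0.22, limma, adjusted p = 0.428) in irradiated mice and -0.01 (-0.15 to 0.14, adjusted p = 0.963) in control mice. Summed astrocyte markers were 1334 to 1489 FPKM in Hippo and 971 to 1136 FPKM in PFC libraries. Among them, mean Aldh1l1 went the other way, at 15.5 FPKM in Hippo 13Gy, 16.6 in Hippo con, 17.2 in PFC 13Gy and 18.1 in PFC con. The part of astrocytes in the Ntrk2 level was not tested. Within single mice Ntrk2 in hippocampus was 0.962 to 1.10 times its level in prefrontal cortex.

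Ntrk3 encodes TrkC. Ntrk3 was at 24.0, 31.1 and 26.0 FPKM in Hippo 13Gy and at 20.5, 21.8 and 28.0 FPKM in Hippo con libraries. In PFC it was at 17.0, 22.8 and 20.2 FPKM in 13Gy and at 19.2, 23.4 and 21.1 FPKM in con libraries. The regions did not overlap in irradiated mice, as for 44.8% of all genes tested, and overlapped in control mice. In irradiated mice the mean was 27.0 ± 3.66 FPKM in the hippocampus and 20.0 ± 2.87 FPKM in the prefrontal cortex (SD, n = 3 each), a log2 difference of 0.42 ± 0.12 (SE, limma, adjusted p = 0.035). In control mice the difference was 0.13 ± 0.12 (SE, 95% interval -0.14 to 0.39, limma, adjusted p = 0.466).
Within single mice the ratio of hippocampus to prefrontal cortex was 1.41, 1.37 and 1.29 in irradiated and 1.06, 0.934 and 1.33 in control mice, so that 1 control mouse lay within the irradiated range. The difference between the treatments in this region effect was itself tested and did not pass, at a log2 value of 0.29 ± 0.19 (SE, 95% interval -0.11 to 0.70, limma, adjusted p = 1.00). The call for Ntrk3 in irradiated mice was lost with no filter on low values (adjusted p = 0.0622), with equal library totals (0.0557), and without Hippo 13Gy 2 (0.0809), Hippo 13Gy 3 (0.0674), PFC 13Gy 1 (0.104) or PFC 13Gy 3 (0.0796). With the mouse as a block the adjusted p was 0.00119.

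Ngfr encodes the p75 receptor, which in the adult forebrain is best known from cholinergic neurons of the basal forebrain. Ngfr was at 1.17, 1.45 and 1.06 FPKM in Hippo 13Gy and at 1.82, 1.47 and 1.12 FPKM in Hippo con libraries. In PFC it was at 0.700, 0.878 and 2.32 FPKM in 13Gy and at 0.998, 2.37 and 2.28 FPKM in con libraries. The 3 PFC libraries above 2 FPKM, irradiated mouse 3 and control mice 2 and 3, lay apart from the other 3 PFC libraries, which were below 1 FPKM. A value of Ngfr rests on an estimated 45 to 149 fragments.
The 6 markers of basal forebrain cholinergic neurons summed to 6.80, 5.84 and 10.6 FPKM in PFC 13Gy and to 6.44, 12.2 and 13.2 FPKM in PFC con libraries. The 3 libraries with high Ngfr were also the 3 with the highest sums, and the part of these cells in the Ngfr level was not tested. In the hippocampus the same markers were near 0, with sums from 0.333 to 0.762 FPKM, while Ngfr was at 1.06 to 1.82 FPKM. Within single mice the ratio of hippocampus to prefrontal cortex ran from 0.459 to 1.82 and was above 1 in 3 of 6 mice, so the direction was not shared. The region difference of Ngfr was 0.02 ± 0.24 on the log2 scale in irradiated mice (SE, limma, adjusted p = 0.965) and -0.20 ± 0.20 in control mice (SE, adjusted p = 0.516). Without PFC con 1 the difference in control mice was -0.44 and was called (adjusted p = 0.0445).

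**Figure D2:**
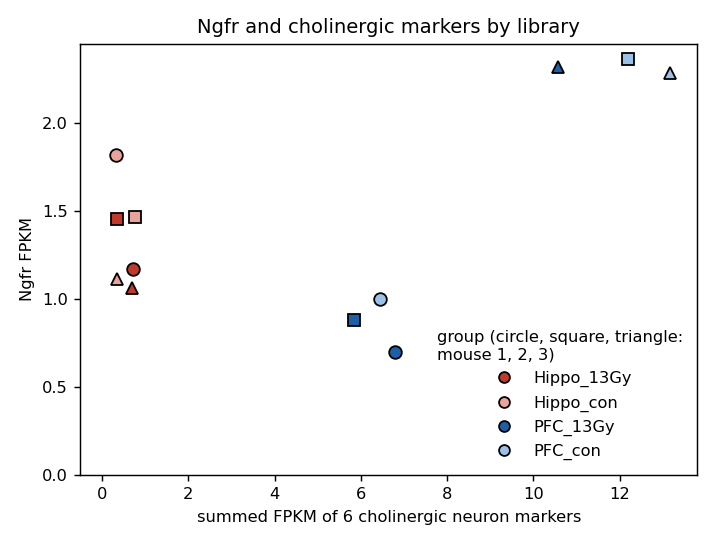
Ngfr in FPKM (vertical axis) against the summed FPKM of 6 cholinergic neuron markers (horizontal axis), 1 point per library, in 4 groups. The Hippo points stand at marker sums below 0.762 with Ngfr between 1.06 and 1.82, and the 3 PFC points with Ngfr above 2 have the highest marker sums.

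Sort1 encodes sortilin. Its level was 101, 108.2 and 98.7 FPKM in Hippo 13Gy and 95.1, 99.3 and 113 FPKM in Hippo con libraries. In PFC it was 89.0, 106 and 91.0 FPKM in 13Gy and 94.9, 94.9 and 84.0 FPKM in con libraries. Sort1 was higher in the hippocampus of every mouse, but at 1.00 to 1.34 times its level in prefrontal cortex this was a small margin. The log2 difference was 0.11 ± 0.08 in irradiated mice (SE, limma, adjusted p = 0.353) and 0.16 ± 0.08 in control mice (SE, adjusted p = 0.169), where the groups did not overlap, as for 45.7% of all genes tested.

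In a fit over all 6 mice with the mouse as a block, added after the data were seen, 4 of 7 members were called between the regions, and 51.1% of all genes tested were called. Bdnf (log2 difference 0.73 ± 0.05, limma, adjusted p = 1.15e-06), Ntf3 (1.56 ± 0.09, 3.21e-07) and Ntrk3 (0.27 ± 0.07, 0.0101) were higher in the hippocampus, and Vgf (-0.22 ± 0.04, 0.000795) was lower. In this fit too, Ntf3 passed the filter on low values through the hippocampus, with means of 0.829 FPKM in PFC 13Gy and 1.04 in PFC con. Sort1 was just outside the threshold at 0.14 ± 0.05 (adjusted p = 0.0535). Ntrk2 was at 0.03 ± 0.03 (0.434) and Ngfr at -0.09 ± 0.17 (0.699).

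**Figure D3:**
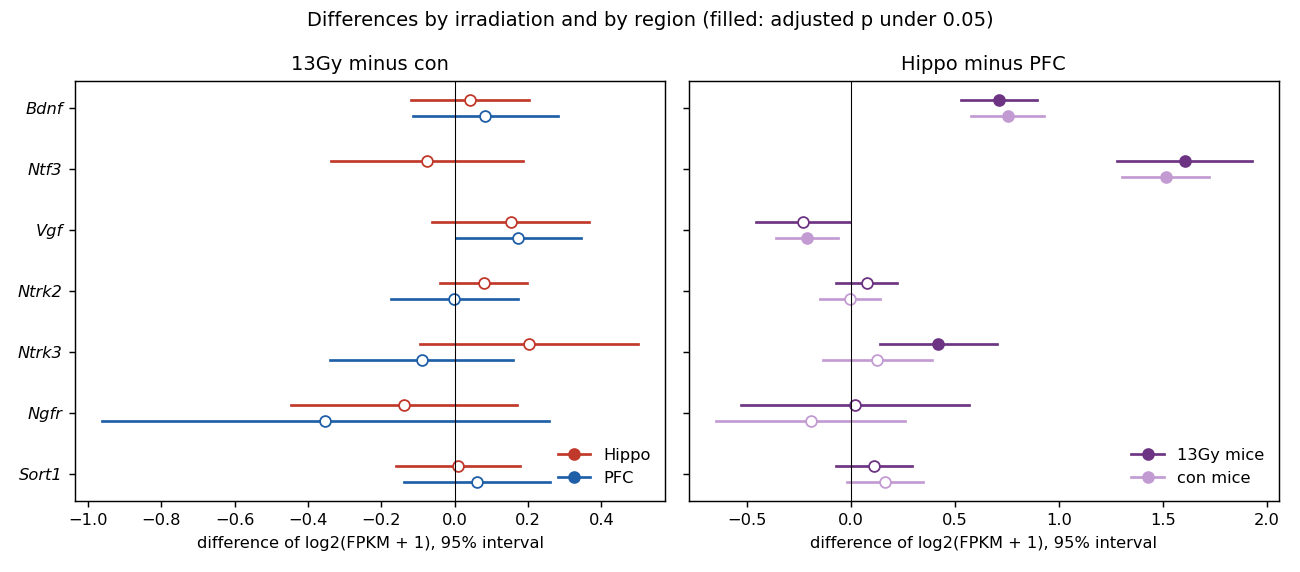
Log2 difference of each gene with its 95% interval on the log2(FPKM + 1) scale, from limma, for 13Gy minus con in each region (left) and for hippocampus minus prefrontal cortex in 13Gy and con mice (right), filled where the adjusted p is under 0.05. The region differences of Bdnf and Ntf3 lie far from 0 in both treatments, and the intervals of the irradiation differences include 0 for every tested gene but Vgf in PFC, whose interval starts at 0.0028.

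Setting each ligand against its receptor compares their levels per kilobase within each library. Bdnf as a percentage of Ntrk2 FPKM was 10.4 ± 0.899% in Hippo 13Gy, 10.6 ± 0.922% in Hippo con, 6.27 ± 0.852% in PFC 13Gy and 5.83 ± 0.395% in PFC con libraries (SD, n = 3 each). Ntf3 as a percentage of Ntrk3 FPKM was 17.2 ± 4.15% in Hippo 13Gy, 20.9 ± 2.22% in Hippo con, 4.12 ± 0.846% in PFC 13Gy and 4.92 ± 0.303% in PFC con libraries (SD, n = 3 each). In both pairs every Hippo library was above every PFC library, and the treatments overlapped within each region. Both receptors were more abundant than their ligand in every library.

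**Figure D4:**
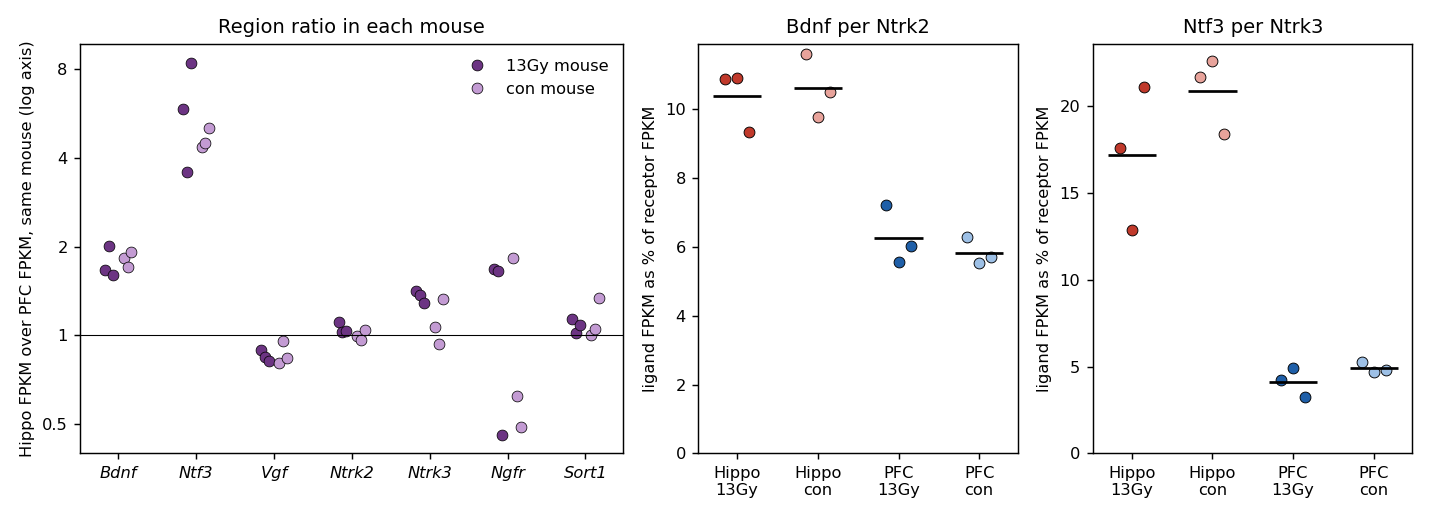
The left panel gives the level in Hippo over that in PFC of the same mouse for each gene (log axis, 1 point per mouse), and the other panels give ligand level as a percentage of receptor level (from 0, 1 point per library, line at the mean of 3). All 6 mice lie above 1 for Bdnf and Ntf3 and below 1 for Vgf, and Bdnf per Ntrk2 lies between 9.33% and 11.6% in Hippo and between 5.52% and 7.22% in PFC libraries.

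Between irradiated and control mice, no tested member was called in either region by limma's test, which does not show that the members were unchanged. In hippocampus 0 of 7 members were called, at an unadjusted p under 0.05 as well 0 of 7, and 0% of all 12947 genes tested were called, while 10.5% had an unadjusted p under 0.05. In prefrontal cortex 0 of 6 tested members were called, 1 of 6 had an unadjusted p under 0.05 (Vgf, beside 7.23% of all genes), and 0.00786% of all 12729 genes tested were called. That percentage is 1 gene, the small nucleolar RNA Snora81, named after its value was seen.

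In hippocampus, Bdnf differed by 0.04 on the log2 scale between irradiated and control mice (95% interval -0.12 to 0.20, limma, adjusted p = 0.822) and Ntf3 by -0.08 (-0.34 to 0.19, adjusted p = 0.802). The widest intervals in hippocampus were those of Ntrk3, at 0.20 (-0.09 to 0.50, adjusted p = 0.558), and Ngfr, at -0.14 (-0.45 to 0.17, adjusted p = 0.683). Ntrk2 was at 0.08 (-0.04 to 0.20, adjusted p = 0.563), Vgf at 0.15 (-0.06 to 0.37, 0.548) and Sort1 at 0.01 (-0.16 to 0.18, 0.972). For all 7 members the irradiated and control libraries overlapped in hippocampus, where 15.6% of all genes tested did not overlap. Marker sums of 6 of 13 cell-type lists did not overlap in the same libraries. Those of endothelium (54.9 to 62.1 FPKM in Hippo 13Gy and 27.3 to 37.5 in Hippo con), pericytes and smooth muscle (63.4 to 76.3 in Hippo 13Gy and 40.3 to 55.8 in Hippo con) and cortical projection neurons (60.6 to 71.3 in Hippo 13Gy and 54.6 to 60.0 in Hippo con) were higher in irradiated mice. Those of oligodendrocytes (1987 to 2111 FPKM in Hippo 13Gy and 2170 to 2678 in Hippo con), microglia (84.8 to 88.8 in Hippo 13Gy and 96.2 to 98.7 in Hippo con) and inhibitory interneurons (615 to 647.7 in Hippo 13Gy and 647.9 to 661 in Hippo con) were lower, and their part in the members' values was not tested. Among the interneuron markers, mean Sst (418 FPKM in Hippo 13Gy and 447 in Hippo con) and Pvalb (48.6 and 54.2) were lower in irradiated mice. Mean Gad1 (111 and 102), Gad2 (40.3 and 35.2), Vip (11.8 and 11.3) and Lhx6 (6.49 and 5.71) were higher. Against the sums of their lists, mean Csf1r among the microglia markers was higher in irradiated mice (26.9 FPKM in Hippo 13Gy and 26.1 in Hippo con). Mean Rorb among the cortical projection neuron markers was lower in irradiated mice (2.43 FPKM in Hippo 13Gy and 2.77 in Hippo con).

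In prefrontal cortex, Vgf was the 1 member whose irradiated and control libraries did not overlap, at 100.6 to 118 FPKM in 13Gy and 94.2 to 99.2 FPKM in con libraries. Non-overlapping groups were found for 13.7% of all genes tested there, and for 6.25% in this direction. The log2 difference of Vgf was 0.17 ± 0.08 (SE, 95% interval 0.0028 to 0.35, limma, unadjusted p = 0.047, adjusted p = 0.679). In hippocampus the mean of Vgf was 93.3 ± 11.3 FPKM in the irradiated and 83.6 ± 5.87 FPKM in the control mice (SD, n = 3 each), with overlapping groups. In the PFC libraries 3 of 13 marker sums did not overlap either. Endothelium was higher at 62.3 to 72.6 FPKM in 13Gy and 52.6 to 55.8 in con libraries, oligodendrocytes were lower at 1383 to 1527 in 13Gy and 1629 to 1776 in con libraries, and fibroblasts were lower at 14.5 to 23.2 in 13Gy and 24.4 to 29.4 in con libraries. Their part in the Vgf difference was not tested.
Ngfr had the widest interval in prefrontal cortex, at -0.35 (-0.96 to 0.26, limma, adjusted p = 0.832). It was -0.65 without PFC 13Gy 3, -0.60 without PFC con 1, -0.22 without PFC con 2, -0.17 without PFC 13Gy 1 and -0.59 with a pseudocount of 0.1, and was called in none of these. Bdnf was at 0.08 (-0.11 to 0.28, adjusted p = 0.868), Ntrk3 at -0.09 (-0.34 to 0.16, 0.891) and Sort1 at 0.06 (-0.14 to 0.26, 0.912). Ntrk2 averaged 92.2 ± 5.73 FPKM in the irradiated and 92.3 ± 5.36 FPKM in the control mice (SD, n = 3 each), with an interval from -0.17 to 0.17. Ntf3 fell under the mean of 1 FPKM set for testing, and without that filter its difference was -0.17 ± 0.10 (SE, limma, adjusted p = 0.828).

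Whether irradiation acted differently on the regions was tested for all 7 members over the 12 libraries. None was called (limma, 0 of 7, and 0 of 7 at an unadjusted p under 0.05), and 0% of 12894 genes were called, with 3.27% at an unadjusted p under 0.05. The differences between the 2 irradiation effects, hippocampus minus prefrontal cortex, were -0.04 for Bdnf, 0.09 for Ntf3, -0.02 for Vgf, 0.08 for Ntrk2, 0.21 for Ngfr and -0.05 for Sort1 on the log2 scale. Ntrk3 had the lowest unadjusted p (0.140). With the mouse as a block, since both regions come from the same mice, 1 of 7 had an unadjusted p under 0.05, Ntrk3 at 0.0344 (limma, adjusted p = 0.915), and 0 of 7 were called. The irradiation and region comparisons use the same libraries, so they are not independent of each other.

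Ntf5, neurotrophin-4, reached at most 0.484 FPKM in any library.

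Of 111 other genes of the pathway found in the files, 103 were tested between the regions. In irradiated mice 12 were higher and 38 lower in the hippocampus (48.5% called, beside 29.2% of all genes), and in control mice 13 were higher and 37 lower (48.5%, beside 30.3% of all genes). Lower genes thus outnumbered higher ones, while Bdnf and Ntf3 were higher.
The neurotrophin-induced list holds activity-regulated genes. In irradiated mice 14 of 17 were lower in the hippocampus and 1 higher, with a median log2 difference of -0.64, beside 0.00011 over all genes. In control mice 13 of 17 were lower and 1 higher, with a median of -0.61, beside 0.0051 over all genes. Egr1, an activity-induced transcription factor, averaged 47.2 FPKM in the hippocampus and 95.3 FPKM in the prefrontal cortex of irradiated mice, and 37.8 FPKM in the hippocampus and 79.1 FPKM in the prefrontal cortex of control mice. Nptx2, a synaptic pentraxin, and Npy, a neuropeptide, were also lower in the hippocampus of control mice, by log2 differences of -1.04 (adjusted p = 0.000171) and -0.88 (adjusted p = 5.30e-05). The exception was Dusp5, a phosphatase of ERK kinases, which was higher in the hippocampus at 0.93 in control mice (adjusted p = 5.21e-05).

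**Figure D5:**
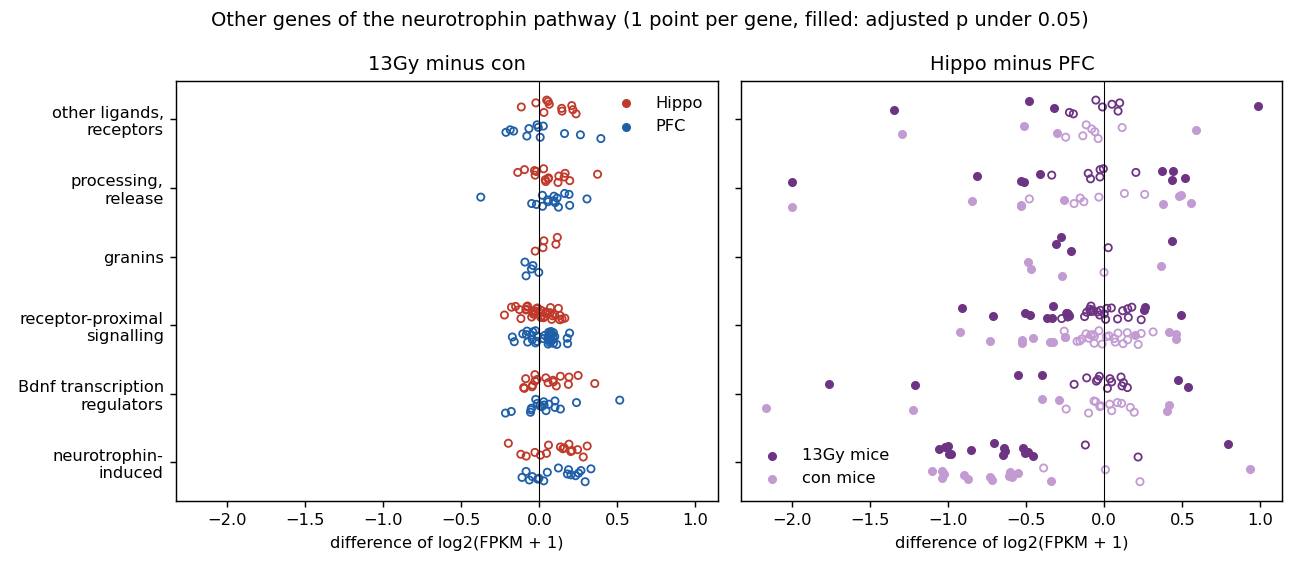
Log2 difference on the log2(FPKM + 1) scale of each tested pathway gene, by list, for 13Gy minus con in each region (left) and hippocampus minus prefrontal cortex in 13Gy and con mice (right), with filled points for genes at an adjusted p under 0.05. The neurotrophin-induced genes lie mostly below 0 between the regions, with medians of -0.64 in 13Gy and -0.61 in con mice.

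Among genes for processing, storage and release, 4 of 16 were higher and 5 lower in the hippocampus in irradiated mice, and likewise 4 and 5 in control mice. Over all genes tested, 29.2% were called in irradiated and 30.3% in control mice, which is the background for this list and for the granins below. The prohormone convertase Pcsk2, which cuts neuropeptide precursors in secretory granules, was lower at -0.81 in irradiated mice (limma, adjusted p = 0.000312) and -0.85 in control mice (adjusted p = 8.39e-05). Furin, the Golgi protease that cuts proneurotrophins, carboxypeptidase E (Cpe) and tissue plasminogen activator (Plat) were among the genes called higher in both. The synaptotagmin Syt6 showed the largest difference of this list in control mice, at -2.0 (adjusted p = 1.94e-06). Of 5 granin relatives of Vgf, Chga, Scg2 and Scg5 were lower in both treatments, as Vgf was in control mice, while Chgb was higher, at 0.43 in irradiated (adjusted p = 0.00287) and 0.36 in control mice (adjusted p = 0.00465).

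Of 11 other ligands and receptors tested, 1 was higher and 3 lower in the hippocampus in either treatment. Beside this, 29.2% of all genes were called in irradiated and 30.3% in control mice. Sorcs1, a relative of sortilin, was lower at -1.34 in irradiated (limma, adjusted p = 8.07e-05) and -1.30 in control mice (adjusted p = 6.76e-05). Lingo1 and Rtn4r, which form a complex with p75 that limits axon growth, were also lower in both treatments. Among 36 receptor-proximal signalling genes, 3 were higher and 9 lower in irradiated mice, and 4 were higher and 9 lower in control mice, shares near the 29.2% and 30.3% of all genes called in those comparisons. Camk4, a calcium-dependent kinase that acts on CREB, was lower at -0.91 in irradiated and -0.92 in control mice, and Rasgrf1, a Ras exchange factor, was among the higher ones. Of 18 regulators of Bdnf transcription, 2 were higher and 4 lower in either treatment, again near the share of all genes. Mef2c and Npas4, activity-related transcription factors, were lower in the hippocampus at -1.76 and -1.22 in irradiated and at -2.17 and -1.23 in control mice.

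Between irradiated and control mice, 0 of 102 pathway genes tested in hippocampus and 0 of 104 in prefrontal cortex were called by limma. At an unadjusted p under 0.05 there were 12 in hippocampus, beside 10.5% of all genes tested, and 13 in prefrontal cortex, beside 7.23% of all genes tested. The neurotrophin-induced genes had a median log2 difference of 0.14 in hippocampus, beside -0.0093 over all genes, and of 0.12 in prefrontal cortex, beside 0.0035 over all genes. Egr1 was at 0.31 in hippocampus (adjusted p = 0.475) and 0.27 in prefrontal cortex (0.609), and Spry4, an inhibitor of receptor kinase signalling, at 0.28 in hippocampus (0.475) and 0.29 in prefrontal cortex (0.590). The smallest p of the pathway in prefrontal cortex was that of Bhlhe40, a circadian and activity-related repressor, at 0.51 (adjusted p = 0.177). None of these passed the threshold.

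Among the genes whose log2 levels ran most like a member over the 12 libraries, out of 12218 compared, Bdnf was closest to Nrp1 (Pearson r = 0.989) and Ntf3 to Npr3 and Stard13 (0.992 each). These libraries share mice and regions, and much of each value is the region difference. For Vgf the closest were Plk3 (0.939) and Stk40 (0.929), for Ntrk2 Tox2 (0.861), for Ntrk3 Zcchc14 (0.974), for Ngfr Med8 (0.840) and for Sort1 Fam189a1 (0.937).
With the group means removed, the closest genes were others: Pet117 for Bdnf (0.912), Setdb2 for Ntf3 (0.909), Doc2a for Vgf (0.944), Mlh3 for Ntrk2 (0.953), Opcml for Ntrk3 (0.972), Oprm1 for Ngfr (0.920) and Tln2 for Sort1 (0.977). Each is the highest of 12218 values and describes these libraries. Between members, Bdnf and Ntf3 had r = 0.937 over levels and -0.803 over deviations from the group means.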

How the data were processed

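Per the labels' protocols, Trizol RNA went into directional NEBNext Ultra II libraries. The submitters' processing notes name TopHat and mm10. The authors deposited 1 table per library with a gene symbol and 1 value, whose unit the tables leave unnamed. FPKM was inferred for the deposited values, since they are fractional, library sums differ (381417 to 435534) and value times median transcript length in kilobases sums to 0.567 to 0.591 M, or to 1.20 to 1.25 M with the longest transcript, on either side of the 1 M that FPKM would give. Counting tool and annotation were not given in the sources used here. Because FPKM is scaled by a library's total, abundant genes move all others. Read counts were not used here. Depth was estimated from the steps between low values and gives no counting error per gene.

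Of the symbols, 95.5% matched GENCODE M21. Tests used limma-trend (limma 3.58.1, R 4.3.3) on log2(FPKM + 1), keeping genes that averaged 1 FPKM or more in the libraries compared, two-sided, with Benjamini-Hochberg adjustment over all genes and a threshold of 0.05. The log2(FPKM + 1) scale understates changes of genes near 1 FPKM. Each comparison used only its own groups, and the difference between the irradiation effects used all 12 libraries. Groups follow the titles, and all libraries carry 1 batch label. Hippo and PFC libraries of a mouse are paired by their titles, with correlations of deviations from -0.0060 to 0.30. The same number in 13Gy and con denotes different mice, with correlations from -0.16 to 0.10 in hippocampus and 0.12 to 0.14 in prefrontal cortex.

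The members and lists were chosen with earlier results of these data known. Named were all 7 members, up to 4 genes of smallest p per list and comparison, and the 2 genes most like each member, some of which are left out of the text. Genes set beside these to name the members of a list in one direction were chosen after their values were seen. Alternatives were a pseudocount of 0.1, no filter, other scalings, robust fitting, 1 fit over 12 libraries, a replicate block and leaving out each library. Scripts were tested on simulated data. Some genes of the pathway lists are not reported here.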

Additional observations from a re-analysis of the deposited data

How the results depend on the processing

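The counts of members called stayed at 0 between irradiated and control mice in either region, at 0 for the difference between the irradiation effects, and between 2 and 4 in the region comparisons, where the main counts were 3, under every alternative run. With a replicate block in the region comparisons, where it pairs the regions of a mouse, Vgf passed in irradiated mice (adjusted p = 0.00868) and no other member's call changed. Between irradiated and control mice the block joins different mice that share a number, and it changed no member's call. In the region comparison of control mice, Vgf was lost in 1 fit over 12 libraries (0.0827).

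Differences near 0 changed sign. Ntrk2 in prefrontal cortex was 0.075 between irradiated and control mice with equal library totals, which moved the median of all genes to 0.07. Over all 6 mice the region difference was 0.035 for Ntrk2 and -0.089 for Ngfr. The cause was not tested. With each library left out, log2 differences between irradiated and control mice ran from -0.042 to 0.078 for Sort1 in hippocampus, and in prefrontal cortex from -0.035 to 0.050 for Ntrk2, -0.18 to 0.015 for Ntrk3 and -0.018 to 0.11 for Sort1. Region differences in control mice ran from -0.029 to 0.041 for Ntrk2 and -0.0032 to 0.21 for Ntrk3, and in irradiated mice from -0.17 to 0.32 for Ngfr. Differences between the irradiation effects ran from -0.096 to 0.0055 for Bdnf, -0.024 to 0.20 for Ntf3, -0.11 to 0.067 for Vgf and -0.10 to 0.026 for Sort1.

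Counts over all genes between irradiated and control mice were 0 to 4 in hippocampus (main 0) and 0 to 4 in prefrontal cortex (main 1), and those of the difference between the effects 0 to 2 (main 0). Ntf3 in prefrontal cortex and Ngfr rest on few fragments. The main p-values rest on the spread between 3 libraries per group, which limma adjusts by a trend over all genes. In the main region comparisons the pairing of regions within a mouse was not used. With the mouse as a block, the region p-values rest on differences within mice.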
